A study of Mus musculus with 24 samples.

Results

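The immunoglobulin superfamily adhesion genes were examined in RNA-seq of mouse LSK-SLAM cells, the Lin-Sca-1+c-Kit+CD48-CD150+ bone marrow fraction that is enriched for hematopoietic stem cells (HSCs). The list held 10 genes, chosen by name, and was proposed with age differences in these same mice already known. Of these, 8 were among the 18762 genes analysed, namely *Alcam*, *Jam3*, *F11r*, *Icam1*, *Icam2*, *Vcam1*, *Pecam1* and *Mcam*, while *Jam2* and *Cd47* were not analysed here. *Alcam* is also among the genes that the study itself listed partly on these samples. Differences between the ages are therefore given as descriptions, and counts of members called in that contrast stand beside the share of all genes without being read as a test.

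Cells came from 5 young (4 to 5 months) and 7 old (20 to 22 months) WT C57BL/6 mice, at ages taken from the sample labels, which name no treatment. The text of the study gives somewhat higher ages for both groups. Each library was made from 300 pg of ribosome-depleted RNA of 15000 cells and sequenced on an Illumina HiSeq instrument. The 24 labelled samples are 2 per mouse, and each mouse, with 1 column of normalized read counts (reads per gene scaled to the effective library size, per M, where M is 1000000), was counted once.

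Adhesion molecules of this superfamily carry extracellular Ig-like domains and bind partners on neighbouring cells or in the matrix, among them the same molecule, integrins and other receptors. In bone marrow they contribute to the contacts of blood cells with endothelium, stromal cells and matrix, and several of them mark endothelial cells as well as HSCs. Because these are bulk samples, fewer cells of a type and less RNA per cell cannot be told apart.

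Reads recovered from the normalized values ranged from 0.861 to 5.12 M per mouse. The name of every mouse ends in a letter A or B, whose meaning is not given in the sources used here, and the 6 mice with letter A (2 young and 4 old) all had fewer reads (at most 3.11 M) than the 6 with letter B (3 young and 3 old, at least 3.23 M). Of the genes that define the sort, *Kit*, *Ly6a* (Sca-1) and *Slamf1* (CD150) had at least 43 recovered reads in every mouse, and *Cd48* had mean normalized read counts of 7.30 in young and 5.38 in old mice. Old mouse 5, a letter A mouse, had the lowest sum over 10 HSC-enriched genes (1483 normalized read counts) and over the 4 sort genes (636) of all 12 mice. Old mouse 6 had the highest sum over 8 neutrophil and granulocyte progenitor genes (4133, against 226 to 1037 in the other 11). Members are therefore also described letter by letter, and without single mice where a call depended on them.

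*Alcam* encodes ALCAM (CD166), which binds itself and the lymphocyte receptor CD6. It is a gene of the minus strand of chromosome 16 (chr16:52248996-52454074, GRCm38), with 155 to 1702 recovered reads in each mouse. In the 5 young mice its normalized read counts were 131, 123, 149, 148 and 105. In the 7 old mice they ran from 122 to 431 with a median of 288. Thus 6 of the 7 old mice were above every young mouse, and old mouse 5 at 122 lay inside the young range. Young mice averaged 131 ± 18.5 (SD, n = 5) and old mice 293 ± 102 (SD, n = 7), a ratio of 2.23. On log2(normalized read count + 1) the difference was 1.07 with a standard error of 0.25 (limma fit over 12354 genes with a mean of at least 10), and 77 of these genes had a larger positive difference. Without old mouse 5 it was 1.27.

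Within each letter, old *Alcam* means were again above young ones. Among letter A mice the young had 131 and 123 normalized read counts and the old 231, 288, 268 and 122. Among letter B mice the young had 149, 148 and 105 and the old 431, 391 and 321, with no overlap. The share of all genes that separate the ages within letter B, with 3 mice of each age, was not counted. The log2 differences between the ages were 0.76 ± 0.37 (standard error) for letter A and 1.51 ± 0.18 for letter B. The 3 old mice with letter B thus had the highest *Alcam* values of the series.

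**Figure D1:**
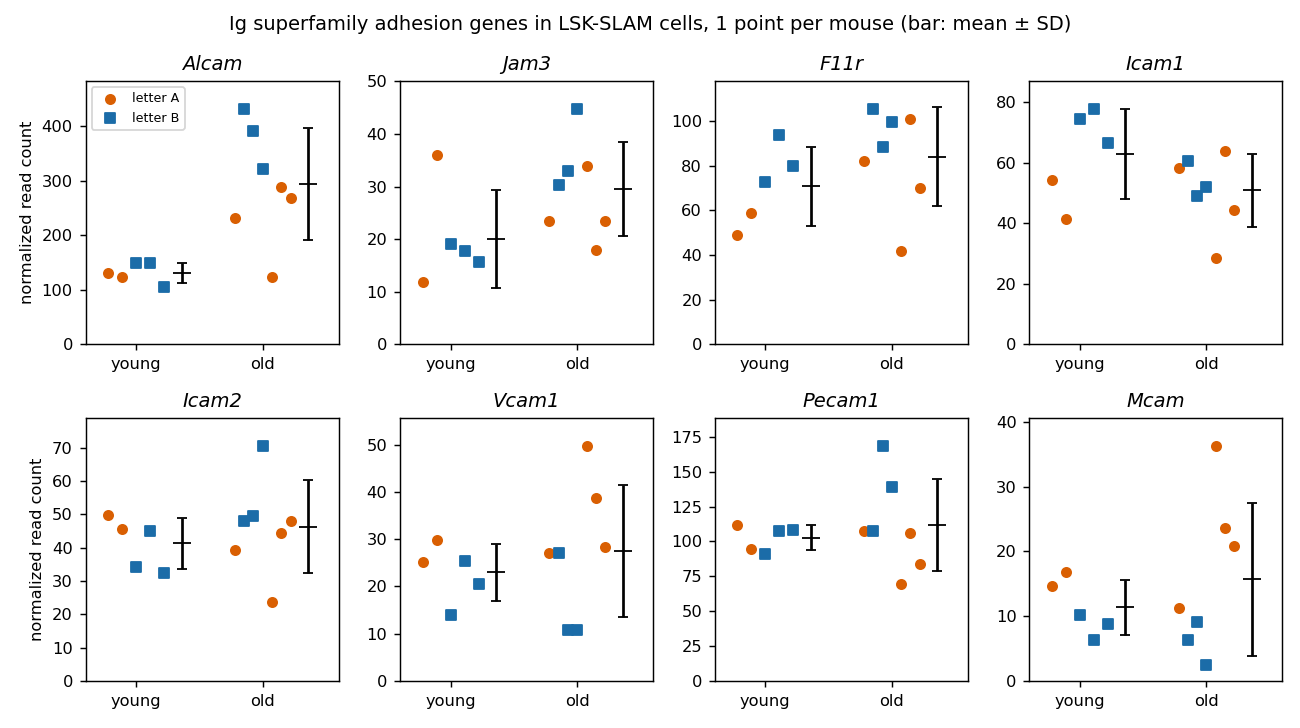
Normalized read count (vertical axis) of the 8 members in young (n = 5) and old (n = 7) mice, 1 point per mouse, with circles for letter A and squares for letter B and the mean ± SD as a bar. *Alcam* is above every young mouse in 6 of 7 old mice, while the ages overlap broadly in the other panels.

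The junctional adhesion molecules JAM-C and JAM-A, encoded by *Jam3* and *F11r*, sit at cell borders and bind leukocyte integrins. *Jam3* (chr9:27097384-27155421, minus strand) had normalized read counts of 11.8, 36.1, 19.0, 17.7 and 15.6 in the young mice and from 17.9 to 44.7 in the old, with a median of 30.4. Only old mouse 4 exceeded every young mouse, since young mouse 2 stood at 36.1. The log2 difference between the ages was 0.58 ± 0.30 (standard error), from means of 20.0 ± 9.36 (SD, n = 5) for the young and 29.5 ± 8.86 (SD, n = 7) for the old. Within letter B the 3 young mice (15.6 to 19.0) lay below the 3 old mice (30.4 to 44.7), for which the share over all genes was not counted. Within letter A the old values fell between those of the 2 young mice. Counting of *Jam3* is uncertain. Of its 50-base stretches, 29.3% match *Gm48796* on the opposite strand, and whether counting used the strand is not given in the sources used here.

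*F11r* (chr1:171437535-171464603, plus strand) was at 48.8, 58.6, 72.8, 93.8 and 79.6 in the young mice. In old mice it ran from 41.8 to 105 with a median of 88.1, so that the ages overlapped. The means were 70.7 ± 17.6 (SD, n = 5) and 84.0 ± 22.3 (SD, n = 7), a log2 difference of 0.23 ± 0.23 (standard error).

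*Icam1*, *Icam2* and *Vcam1* encode counter-receptors of leukocyte integrins, the first 2 for LFA-1 and the last for VLA-4. *Icam1* (chr9:21015985-21028817, plus strand) was the only member with a lower mean in old mice, with 62.9 ± 15.0 (SD, n = 5) for the young and 50.9 ± 12.01 (SD, n = 7) for the old. The young values were 54.4, 41.3, 74.4, 77.7 and 66.7, and the old ranged from 28.4 to 63.7 with a median of 52.1. The 3 young letter B mice held the highest *Icam1* values of the series, above all old mice. The share of all genes with such a pattern was not counted. The log2 difference was -0.31 ± 0.23 (standard error), with -0.03 within letter A and -0.43 within letter B. A share of 13.1% of the 50-base stretches of *Icam1* occurs in other genes, mostly in *Gm47079* on the opposite strand.

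*Icam2* (chr11:106377656-106388075, minus strand) had young values of 49.8, 45.7, 34.1, 44.9 and 32.3 normalized read counts, and old values from 23.7 to 70.6 with a median of 48.0. Its mean was nearly the same at both ages, 41.4 ± 7.68 (SD, n = 5) and 46.2 ± 14.0 (SD, n = 7), and the log2 difference between the ages was 0.12 ± 0.24 (standard error). The letters gave values of opposite sign, with a log2 difference of -0.34 ± 0.39 within letter A and 0.57 ± 0.27 within letter B.

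*Vcam1* (chr3:116109949-116129688, minus strand) was at 25.2, 29.8, 13.9, 25.3 and 20.6 in the young mice, and between 10.7 and 49.7, with a median of 27.1, in the old. Old mice lay on both sides of the young range, 2 above and 2 below it. The log2 difference between the ages was 0.11 ± 0.37 (standard error), 0.34 within letter A and -0.38 within letter B.

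*Pecam1* (CD31) and *Mcam* (CD146) are best known from endothelial cells, and *Pecam1* is also carried by HSCs and platelets. *Pecam1* (chr11:106654217-106750628, minus strand) was steady in the young mice at 112, 94.7, 91.2, 107 and 108 normalized read counts. In the old mice it spread from 69.5 to 168 with a median of 107, on both sides of the young values. The means were 103 ± 8.96 (SD, n = 5) and 112 ± 33.2 (SD, n = 7), and the log2 difference was 0.07 ± 0.20 (standard error), with -0.19 within letter A and 0.41 within letter B.

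*Mcam* (chr9:44134469-44142727, plus strand) was the member with the fewest reads, from 13 to 52 per mouse. Its normalized read counts were 14.6, 16.8, 10.2, 6.28 and 8.81 in the young mice and ran from 2.53 to 36.3, with a median of 11.3, in the old. Both the lowest and the highest value of the series were in old mice, old mouse 4 and old mouse 5. The log2 difference between the ages was 0.15 ± 0.55 (standard error), the widest error of the 8 genes.

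In all, 7 of the 8 members had a positive and 1 a negative difference between old and young, with a median of 0.14 on the log2 scale against -0.02 over all genes tested, 47.7% of which had a positive difference. With the letter as a covariate, 5 members were positive, since *Vcam1* (-0.04) and *Mcam* (-0.09) turned. Over 30 alternatives the difference of *Vcam1* was positive in 23 and that of *Mcam* in 21. None of the 8 members was called in the limma fit over all mice, in which 13 of 12354 genes (0.105%) were called and 488 had an unadjusted p under 0.05. For none of them did the ages fail to overlap, which was the case for 57 genes tested (0.461%). With the letter as a covariate, 37 genes (0.299%) were called, and *Alcam*, one of these, had a log2 difference of 1.16 ± 0.21 (standard error). These counts belong to the contrast with which the list was proposed, and nothing is read from them.

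Whether the age difference itself depended on the letter was tested with an interaction term, which the choice of members did not use. It was called for 2 genes (0.0162%) and for none of the 8 members, whose limma adjusted p was 0.9998 each, and for 0 members under edgeR and DESeq2. At an unadjusted p under 0.05 there were 424 genes and 0 members. *Icam2* had the smallest unadjusted p of the members, 0.0550 from limma, with an age difference that was 0.91 ± 0.45 (standard error) larger on the log2 scale within letter B than within letter A. For *Alcam* that difference was 0.74 ± 0.41 (unadjusted p = 0.0823, limma). With 2 to 4 mice in each group of age and letter, the members' standard errors of this term ran from 0.37 to 0.84.

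**Figure D2:**
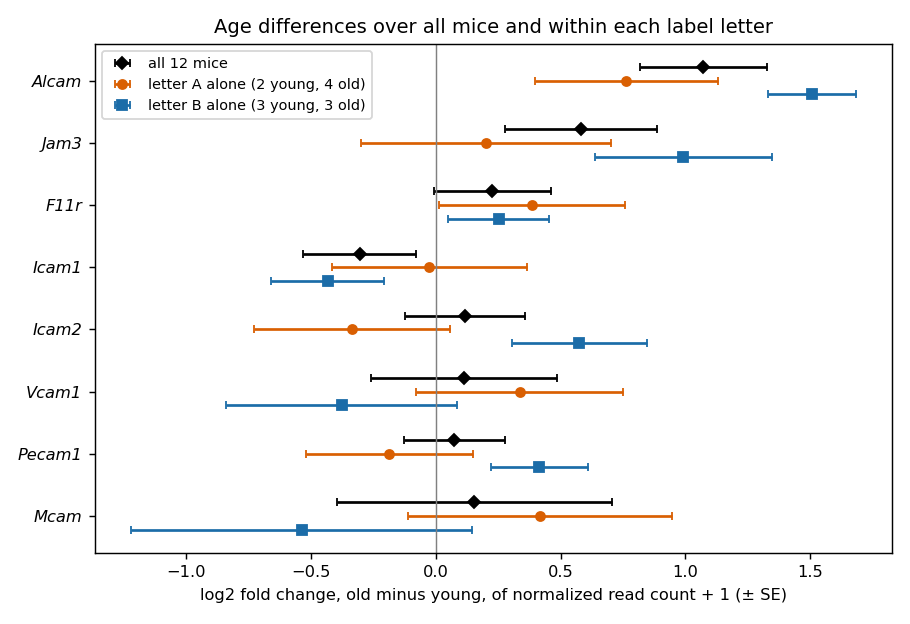
Log2 difference between old and young mice (horizontal axis, ± standard error) for each member over all 12 mice (diamonds), within letter A (circles, 2 young and 4 old) and within letter B (squares, 3 young and 3 old). *Alcam* is above 0 in all 3 fits, whereas *Icam2*, *Vcam1*, *Pecam1* and *Mcam* lie on opposite sides of 0 in the letters.

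The label letter, which the choice of members did not use, was compared with age as a covariate. With limma, 4462 genes (36.1%) were called, 3161 of them lower (25.6%) and 1301 higher (10.5%) in letter B. After rescaling by median ratios, 2888 were lower and 2267 higher. Of the 8 members 3 were called, *Mcam* and *Vcam1* lower and *F11r* higher in letter B, a share close to that of all genes.

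*Mcam* fell from 20.6 ± 8.86 (SD, n = 6) normalized read counts in letter A to 7.21 ± 2.79 (SD, n = 6) in letter B, by 1.41 on the log2 scale (standard error 0.41, limma adjusted p = 0.0109). All letter A mice (11.3 to 36.3) were above all letter B mice (2.53 to 10.2). The share of all genes that separate the letters in this way was not counted. *Vcam1* fell from 33.1 ± 9.38 (SD, n = 6) to 18.1 ± 7.27 (SD, n = 6), by 0.90 on the log2 scale (standard error 0.30, limma adjusted p = 0.0209), and letter B mice reached up to 27.1, above the lowest letter A mouse at 25.2. *F11r* rose from 67.1 ± 22.1 (SD, n = 6) to 89.9 ± 12.2 (SD, n = 6), by 0.52 on the log2 scale (standard error 0.20, limma adjusted p = 0.0417), again with overlap. Without the 2 shallowest mice, old mice 5 and 7, none of the 3 was called (limma adjusted p = 0.0765 for *Mcam*, 0.0863 for *Vcam1* and 0.149 for *F11r*), at log2 differences of -1.14, -0.79 and 0.35. With reads of every mouse thinned to the shallowest, the same 3 genes were called.

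The other 5 members were not called between the letters. *Alcam* had a log2 difference of 0.50 (standard error 0.21, limma adjusted p = 0.0619), and it was called in 5 of 24 alternatives. Among these was rescaling by median ratios, with a difference of 0.62, the only alternative in which *Pecam1* was called. That rescaling moved the median of all genes in this contrast from -0.09 to 0.03. In the limma fit, the log2 differences of *Pecam1*, *Icam1*, *Jam3* and *Icam2* lay between 0.17 and 0.37.

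The direction between the letters went with the level of a gene. Of the 5315 genes tested with a mean of 10 to 30 normalized read counts, where *Mcam*, *Vcam1* and *Jam3* lie, 48.6% were called lower and 1.22% higher in letter B, and the median log2 difference was -1.03. Among the 4786 genes with means of 30 to 100, where *F11r*, *Icam1* and *Icam2* lie, 11.8% were lower and 8.15% higher. Above 100, the level of *Alcam* and *Pecam1*, 0.71% of 2253 genes were lower and 37.5% higher, with a median of 0.43. Against the median of -1.03 for genes of their level, *Mcam* stood at -1.41, *Vcam1* at -0.90 and *Jam3* at 0.22.

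**Figure D3:**
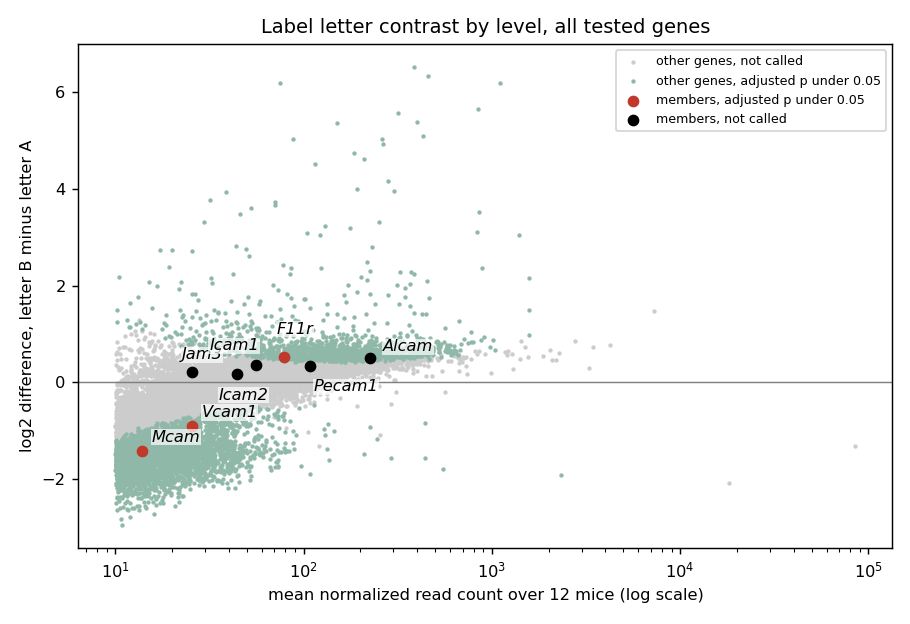
Log2 difference between letter B and letter A (vertical axis) against the mean normalized read count over 12 mice (horizontal axis, log scale) for all tested genes, with members as large points. *Mcam* and *Vcam1* lie in the cloud of low-level genes that were lower in letter B, while the 6 other members are above 0.

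Markers of other cells also differed between the letters. Of 45 tested markers of non-HSC types, 24 (53.3%) were lower in letter B, against 25.6% of all genes. With means of 10 to 30 it was 14 of 23 (60.9%), against 48.6% of all genes of that level. With means of 30 to 100 it was 8 of 15 (53.3%), against 11.8%, and above 100 it was 2 of 7 (28.6%), against 0.71%. Of 8 endothelial genes tested, 5 were lower (*Cdh5*, *Stab1*, *Flt4*, *Sox17* and *Ptprb*) and 1 higher (*Tie1*) in letter B. Lower in letter B were also 7 of 8 stromal genes, whose sum ranged from 219 to 412 normalized read counts in letter A and from 80.3 to 238 in letter B. Of 6 macrophage and monocyte genes 4 were lower, of 8 neutrophil genes 3, of 8 erythroid genes 3, of 5 megakaryocyte genes 1 and of 2 lymphoid genes 1. Of the 10 HSC-enriched genes 5 were higher in letter B and none lower, and all 5 are among 6 with means above 100, where 37.5% of all genes were higher. No listed marker was at 0 in the mean of either letter, and no marker was called between the ages by limma, where 2 of 58, *Hoxb5* and *Pf4*, had an unadjusted p under 0.05. The part of other cells, depth or RNA amount in these differences was not tested.

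Levels can be compared between genes only per length, here as normalized read count per kilobase of annotated exon. In the young mice the order of the mean levels per kilobase was *F11r* (26.6 ± 6.61, SD, n = 5), *Icam2* (21.7 ± 4.03), *Alcam* (18.4 ± 2.60), *Pecam1* (16.5 ± 1.44), *Icam1* (14.4 ± 3.44), *Jam3* (6.26 ± 2.93), *Mcam* (3.39 ± 1.29) and *Vcam1* (2.59 ± 0.68). In the old mice *Alcam* led with 41.2 ± 14.4 per kilobase (SD, n = 7), followed by *F11r* with 31.6 ± 8.36 and the others in the same order. Per kilobase of annotated exon, *Alcam* was the highest member in each of the 7 old mice, old mouse 5 included. On the same length *F11r* was highest in 3 and *Icam2* in 2 of the young mice.

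Over the 12 mice, the neighbours *Alcam* and *F11r*, *F11r* and *Icam2*, *Icam2* and *Pecam1*, and *Mcam* and *Vcam1* did not differ in level per kilobase beyond the larger SD of the pair. The other neighbours did. Of the members' summed normalized read counts, *Alcam* made up 28.3% ± 2.91 (SD, n = 5) in the young and 43.3% ± 7.24 (SD, n = 7) in the old, with ranges of 24.0% to 32.1% and 30.2% to 52.8%. These counts are not divided by length, so that the share compares the ages and not the levels of the genes. The orders per kilobase rest on the exon length taken. With the longest annotated transcript as length, *F11r* moved to the fourth place over all mice and *Mcam* to the last. The highest member in single mice depends on the length as well, since *Icam2* then passes *Alcam* in old mouse 4.

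**Figure D4:**
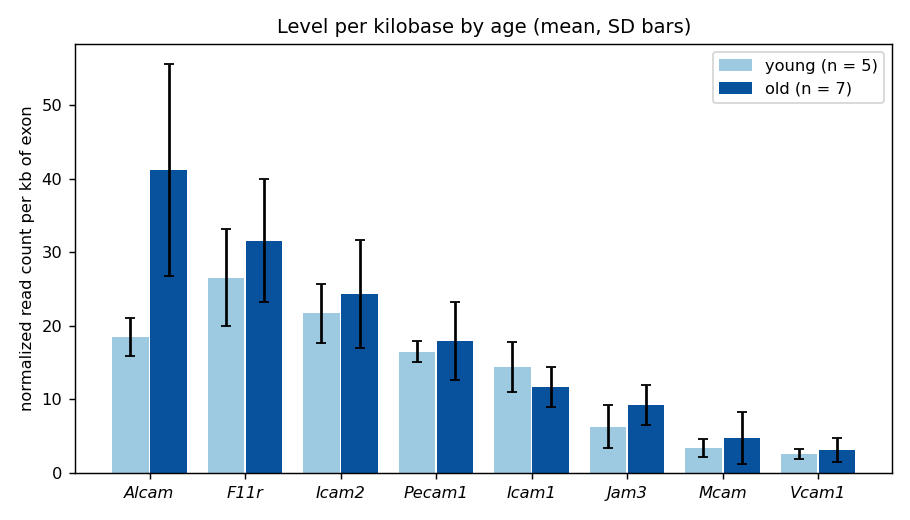
Mean normalized read count per kilobase of exon (bars, with SD) of each member in young (n = 5) and old (n = 7) mice, in order of the mean over all mice. *Alcam* is below *F11r* and *Icam2* in young mice at 18.4 and above both in old mice at 41.2, and *Mcam* and *Vcam1* are lowest at both ages.

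The members did not vary together as 1 group. After centring log2 values on the 4 groups of age and letter, Pearson's r over the 12 mice ran from -0.70 (*Icam2* and *Mcam*) to 0.85 (*F11r* and *Icam1*) among the 28 pairs of members, with a median of -0.09. The highest values rested on old mouse 5, the lowest of the old mice for *Alcam*, *Icam1* and *F11r*. Without it, in a comparison added after the data were seen, r fell from 0.82 to 0.39 for *Alcam* and *Icam1*, from 0.77 to 0.15 for *Alcam* and *F11r*, and from 0.85 to 0.48 for *F11r* and *Icam1*. Without centring, r over the 12 mice was 0.08, 0.67 and 0.66 for these pairs. *Vcam1* and *Pecam1* had r = -0.55, and -0.41 without old mouse 5. Other pairs rose without that mouse, *F11r* and *Vcam1* from -0.04 to 0.66 and *Alcam* and *Mcam* from -0.23 to 0.50. The points of each pair share library and depth, so that these values are descriptions.

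Among all tested genes, the 2 whose pattern over the 12 mice was most like that of *Alcam*, by the same measure, were *Nbr1* (r = 0.97) and *Bclaf1* (r = 0.97). For *Pecam1* they were *Pgls* (r = 0.98) and *Emcn* (r = 0.95), the latter the endomucin gene of endothelial cells and HSCs. For *Mcam* they were *Nrp1* (r = 0.96) and *Rsph10b* (r = 0.96), and for *Vcam1* *Slc6a16* (r = 0.95) and *Trim5* (r = 0.94). For *Icam1* they were *Lcp1* and *Ctdsp2* (both r = 0.98), and for *Icam2* *Cers5* (r = 0.96) and *Gnpda1* (r = 0.94). The values for *F11r* were those of *BC031181* and *Atp6v1h* (both r = 0.95), and for *Jam3* *Tmprss3* (r = 0.95) and *Tnip2* (r = 0.92). Each r is the highest among 12354 genes over a few mice, so that a high value is not in itself a finding. Without old mouse 5 the values of *Alcam* were 0.90 and 0.87, those of *F11r* 0.86 and 0.85, and those of *Icam2* 0.94 and 0.85. Those of the other members then lay between 0.92 and 0.98.

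The genes of surface and matrix partners were read in the same fits, 15 of them tested. None was called between the ages by limma, against 0.105% of all genes, 2 had an unadjusted p under 0.05, and 7 of 15 had a positive difference. The largest log2 differences were those of *Cd38*, an ectoenzyme that binds PECAM-1, with 1.18 ± 0.24 (standard error, limma adjusted p = 0.0773), of *Itgb3*, the integrin β3 subunit, with 0.999 ± 0.21 (limma adjusted p = 0.105), and of *Lama4*, a laminin chain bound by MCAM, with 0.56 ± 0.40. *Cd38* lay between 33.9 and 40.4 normalized read counts in the young mice and between 48.9 and 146 in the old, without overlap. The ages did not overlap for 0.461% of all genes tested. It was called by the quasi-likelihood test of edgeR and by DESeq2, and with the letter as a covariate *Cd38* and *Itgb3* were both called.

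*Cd6*, the receptor for ALCAM, averaged 16.0 ± 10.6 (SD, n = 5) normalized read counts in the young and 13.3 ± 11.7 (SD, n = 7) in the old, a log2 difference of -0.53 ± 0.63 (standard error). The VLA-4 subunits that bind VCAM-1 drew more reads, with *Itga4* at 489 ± 105 in young and 395 ± 114 in old mice and *Itgb1* at 261 ± 37.7 and 245 ± 74.9. Of the LFA-1 subunits that bind the ICAMs, *Itgb2* had a log2 difference between the ages of 0.39 ± 0.27 (standard error) and *Itgal* of 0.46 ± 0.49. *Itgam* stayed under the minimum mean and was not tested. The other surface partners tested, *Itgax*, *Itgad*, *Spn*, *Itga9*, *Itgav*, *Sirpa* and *Thbs1*, had log2 differences between -0.37 and 0.22. Between the letters, *Itgb3* was higher in letter B, 1 of 15 against 10.5% of all genes. *Cd6*, *Itgal*, *Itga9*, *Thbs1* and *Itgad* were lower there, 5 of 15 against 25.6% of all genes.

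Of 11 cytoplasmic and shedding partners tested, none was called between the ages by limma or had an unadjusted p under 0.05, and the largest log2 differences were those of *Pard6b* (0.47 ± 0.43, standard error), *Rdx* (-0.36 ± 0.25) and *Sdcbp* (0.24 ± 0.29). In letter B *Ptpn6*, *Sdcbp* and the sheddase gene *Adam10* were higher, 3 of 11 against 10.5% of all genes. These 3 are among 7 with means above 100, where 37.5% of all genes were higher. The polarity genes *Pard3* and *Pard6b* were lower, 2 of 11 against 25.6% of all genes. Of 39 other Ig-domain adhesion genes tested, again none was called between the ages by limma, and 1, *Gpa33*, had an unadjusted p under 0.05. A positive difference was found for 29, against 47.7% of all genes tested, and the median log2 difference was 0.23 against -0.02. This count was not repeated with the letter as a covariate. Letter A holds 4 of the 7 old and 2 of the 5 young mice. Of this list, 28 genes had means of 10 to 30. Over all 5315 genes tested at that level, the median log2 difference in letter B minus letter A was -1.03. The part of the letter in the count was not tested. The largest age differences were those of *Gpa33* (1.46 ± 0.61, standard error), *L1cam* (0.98 ± 0.51) and *Chl1* (0.75 ± 0.44). *Esam* and *Cd84* were higher in letter B, 2 of 39 against 10.5% of all genes. Lower there were 15 (38.5%, against 25.6% of all genes), and 12 of the 28 with means of 10 to 30 (42.9%, against 48.6% of all genes of that level). With means of 30 to 100 it was 3 of 9 (33.3%, against 11.8%), and above 100 it was 0 of 2. The 15 were *Gpa33*, *Cd33*, *Cadm2*, *Cadm3*, *Nrcam*, *Nectin3*, *Nfasc*, *Siglec1*, *Cd22*, *Crtam*, *Mpzl2*, *Mpzl3*, *Ncam1*, *Hepacam* and *Jaml*.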

How the data were processed

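Libraries of sorted LSK-SLAM cells, 5 from young and 7 from old mice, were analysed from the deposited table of normalized read counts, a signal that the authors made by scaling reads per gene to the effective library size, per M (1000000). The submitters' processing notes name FastQC 0.11.8, STAR 2.5.4b, edgeR 3.24.3 and mm10. A table of the authors' own comparison, with fold changes and p-values, was not used. The values were whole multiples of 1 read (100% within 0.001), and whole reads were recovered for count tests, in which edgeR called 18 and DESeq2 57 genes between the ages. The mice of 1 age differed from each other, with a chi-square per gene of at least 6.88 over 31 pairs.

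The age contrast, the letter contrast with age as covariate, and their interaction were fitted with limma 3.58.1 in R 4.3.3 (trend) on log2(value + 1) over 12354 genes (mean value 10 or more), with Benjamini-Hochberg adjustment over all of them and calls at an adjusted p under 0.05. Adding 1 makes log2 differences of low-count genes too small. Alternatives were other pseudocounts and minimum means, no trend, median-ratio scaling, edgeR 4.0.16, DESeq2 1.42.0, leaving out each mouse, either letter alone and a replicate block. Thinned reads, leaving out the 2 shallowest mice, replicates 1 to 5 without the block, and count tests with the letter were added after the data were seen. Members and gene lists were chosen with earlier results of these data known. Named were all members, the partner and Ig-domain genes called in either contrast, direct surface partners, the 3 of each list with the largest age difference, and for each member the 2 most similar genes. GENCODE vM21 gave positions, exon lengths and the 50-base stretches shared between genes (18745 of 18762 identifiers found). The age and letter fits were also run on simulated data with changes planted in 1 contrast at a time. The outcome is not given here, and nothing is read from it. Each mouse gave 1 library, so that p-values measure the spread between mice and libraries together.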

Additional observations from a re-analysis of the deposited data

How the results depend on the processing

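Between the ages, 0 members were called in the limma fit over all mice and 1, *Alcam*, under DESeq2, with the letter as a covariate, within letter B alone, with the letter in edgeR or DESeq2, and without the 2 shallowest mice. Leaving out each mouse in turn gave 0 to 1, the 1 without old mouse 5. The log2 difference of *Alcam* stayed between 0.76 and 1.51 over 30 alternatives. Of the partner and other Ig-domain genes, 0 were called, against 1 with either edgeR test or thinned reads, 2 with DESeq2, with the letter as a covariate in limma, edgeR or DESeq2, or without the 2 shallowest mice, 3 within letter B alone (*Cd38*, *Itgb3* and *Slamf1*), and 0 to 2 when each mouse was left out, the 2 without old mouse 5. Between the letters, the 3 members called became 5 with median-ratio scaling and 0 without the 2 shallowest mice, and 1 to 4 when each mouse was left out. Without old mouse 4 or old mouse 5 it was 1, *Mcam*. *F11r* was not called in 12 of 24 alternatives and *Vcam1* in 5. Over all genes, the 13 called between the ages became 57 with DESeq2, 37 with the letter as a covariate (43 in edgeR, 81 in DESeq2), 49 without the 2 shallowest mice, 100 within letter B, 1 within letter A, 2 without trend, 8 in replicates 1 to 5 and 3 to 32 when each mouse was left out, and the 4462 between the letters 2288 without the 2 shallowest. The interaction gave 0 members in all 23 alternatives. No value of a called member turned its direction. With the longest transcript as length, the level per kilobase of *Icam2* moved to 34.5, of *Pecam1* to 31.3, of *Icam1* to 22.1, of *Jam3* to 13.2 and of *Vcam1* to 6.26.

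Replicate numbers pair different animals, and the correlations of same-numbered mice, centred on age alone, ran from -0.56 to 0.61. Whether same-numbered mice share more than the number was not tested. The pairs that also share a letter (replicates 1, 3 and 4) had 0.18, 0.40 and 0.61, and those of different letters (replicates 2 and 5) had -0.56 and 0.04. With the replicate block over replicates 1 to 5, 0 members and 0 partner genes were called, as in the same mice without it. Over all genes the block raised the calls from 8 to 19, and *Alcam* had a log2 difference of 1.07 both ways.

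Depth limits *Mcam*, *Vcam1* and *Jam3* most, since 3 reads correspond to normalized read counts between 0.583 and 3.69. Letter and depth do not overlap, so that they cannot be told apart. In the values of the 8 members, no mouse stood apart from its age group by Dixon's criterion, in 16 groups of member and age. Other genes, such as the neutrophil genes high in old mouse 6, were not part of this.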
